A study of Mus musculus with 24 samples.

Results

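Livers of mice given MitoCDNB were compared at 4 h and at 1 h after the injection, gene by gene, so that the course of the response within treated animals could be read. Members were the 12 libraries titled as MitoCDNB at these times, 6 per time, out of 24 libraries in the series. All mice were C57BL/6 and all RNA came from the medial liver lobe. The treated groups had received 5 mg/kg MitoCDNB, and the other 12 libraries came from mice given vehicle with 0.1% ethanol, again 6 at 1 h and 6 at 4 h. No genotype, age or sex is stated for any group. Each library was described per the labels as polyadenylated RNA of an injected mouse, so replicates are animals, and no animal was sampled at both times. The 4 h libraries carry the numbers 1 to 12 and the 1 h libraries 13 to 24, so time after injection, library number and hour of sampling cannot be told apart. For that reason the course in vehicle livers, measured in separate libraries over the same interval, is given beside the main results. A gene named below that is not said to differ in course from vehicle did not pass the test of that difference.

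MitoCDNB joins the thiol-reactive compound CDNB to a lipophilic triphenylphosphonium cation, which accumulates in mitochondria because of their membrane potential. CDNB reacts with glutathione, a reaction sped by glutathione S-transferases, and alkylates thioredoxin reductase, so the conjugate was made to act on both thiol systems of the mitochondrial matrix. Cells answer such stress at several speeds. Immediate early genes are transcribed within minutes and have short-lived transcripts, the integrated stress response and NRF2 act through transcription factors over longer periods, and feedback phosphatases and inhibitors end the signals. In liver these programmes run beside the circadian clock and the fed and fasted programmes of glucose and lipid metabolism, which change over a few hours in undisturbed animals too.

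Library sizes over the whole series ran from 25.1 to 37.2 M counts. Levels are read counts scaled to library size (CPM). Fold changes are on the log2 scale with 4 h relative to 1 h and ± the SE, and calls were made in edgeR's quasi-likelihood test at adjusted p under 0.05, over 13833 genes. In these bulk samples, fewer cells of a type and less RNA per cell cannot be told apart. The summed level of 12 hepatocyte markers, which include albumin and transthyretin, was 82830 to 90250 CPM at 1 h and 78620 to 95540 CPM at 4 h in the MitoCDNB livers, so the defining markers of the labelled tissue were present. The first principal component of these 12 libraries held 40.4% of the variance and separated the times, with scores of 26.6 to 30.1 at 1 h and -34.7 to -16.5 at 4 h. MitoCDNB 4 h replicate 2 had the 4 h score nearest to 1 h and lay at -30.2 on the second component (9.95% of the variance). Transcripts of brain, such as Snap25 and Camk2a at up to 1.15 and 1.72 CPM, were present at low level in replicates 4 to 6 of both 1 h groups, and their part in other results was not tested. List counts below are therefore also given with the 1 h replicates 1 to 3 alone or 4 to 6 alone, or without MitoCDNB 4 h replicate 2, for the lists that lead the text and where a count of at least 3 members moved by over 1.5 times. These alternatives were chosen after seeing the data. For single genes, the difference from vehicle was checked under alternatives only for the 10 largest differences per direction.

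Between 1 h and 4 h after MitoCDNB, 2086 genes rose (15.1% of the genes tested) and 1854 fell (13.4%), together 3940 or 28.5%. Counts of called list members below are to be read beside the shares of 15.1% and 13.4%. Most of these changes were small: the median absolute log2 fold change of called genes was 0.498, and 278 rose and 341 fell by at least 2-fold. The largest changes were mainly falls, with 75 genes falling and 29 rising by at least 4-fold, and 26 falling and 2 rising by at least 8-fold. In 969 genes (7%) every 4 h library was above every 1 h library, and in 837 (6.05%) every 4 h library was below. Over the same interval in vehicle livers 413 genes rose (2.99%) and 340 fell (2.46%), or 5.44% in all, and 79 of these changed by at least 2-fold.

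The treated and the vehicle courses overlapped in part. Of the 3940 genes called after MitoCDNB, 526 were called in the same direction in vehicle (298 rose and 228 fell), which is 13.4% of the MitoCDNB list and 69.9% of the vehicle list, while 10 were called in opposite directions. Called in vehicle or not, 3270 of the 3940 (83%) had the same sign there, against 68.2% of all genes tested. Over all genes the log2 fold changes of the courses correlated at r = 0.466. The course itself differed between MitoCDNB and vehicle in 563 genes (4.07%), tested as an interaction: it was more upward after MitoCDNB in 329 (2.38%) and more downward in 234 (1.69%). Among the 3940 genes called after MitoCDNB, 533 (13.5%) had a course that differed from vehicle by this test. Of the genes that rose after MitoCDNB, 315 also rose more than in vehicle, and of those that fell, 217 also fell more. In 215 of these 217 genes the mean at 1 h was higher after MitoCDNB than after vehicle, with a median log2 difference of 0.826, and at 4 h the median difference was -0.269. The 315 genes that rose more mirrored this: 310 had a lower mean after MitoCDNB than after vehicle at 1 h (median -0.489), and at 4 h the median difference was 0.179. These levels come from the libraries that selected the genes and are a description only.

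**Figure D1:**
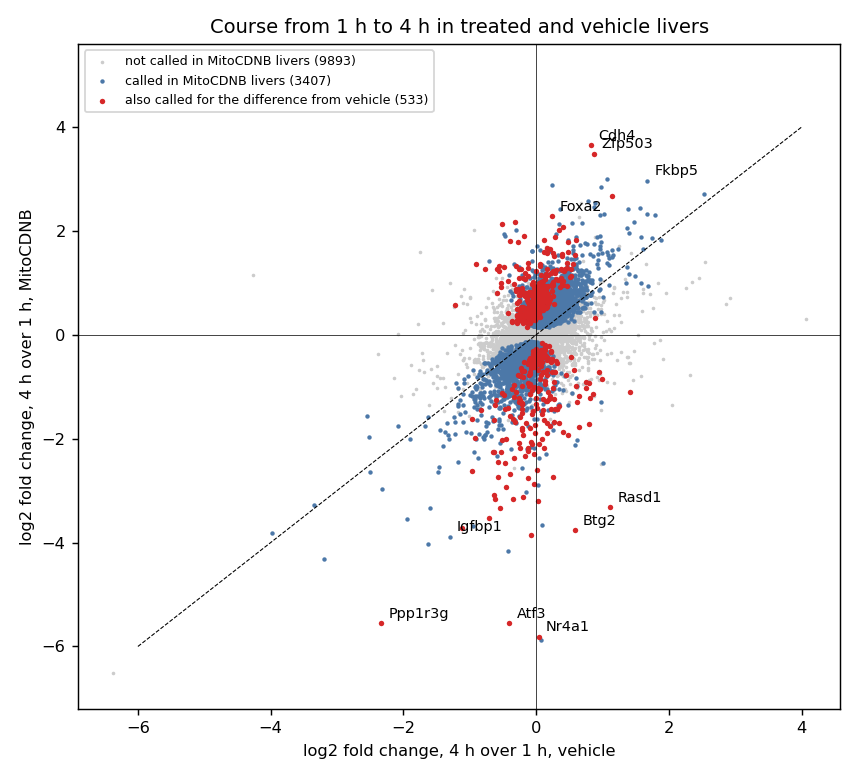
Log2 fold change from 1 h to 4 h in vehicle livers (x axis) against that in MitoCDNB livers (y axis). Each point is a gene tested (13833 genes). Blue and red mark genes called after MitoCDNB, and red the 533 of them whose course also differed from vehicle. Genes called for the difference alone are grey, like the uncalled genes. Of the labelled genes, Nr4a1 lay at -5.81 after MitoCDNB and 0.040 in vehicle, and Cdh4 at 3.65 and 0.82. The courses of Fkbp5 and Igfbp1, also labelled, did not differ from vehicle by the test.

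Immediate early genes were prominent among the largest falls. Of 32 tested members of a list of immediate early and early response genes, 22 fell and 2 rose, with a median log2 fold change of -2.01 against -0.00961 over all genes, where 13.4% of genes fell. In vehicle livers 1 member rose, none fell (at an adjusted p under 0.05) and the median was -0.0148. The course of 15 members was more downward than in vehicle and that of none more upward (background 1.69% and 2.38%). With the 1 h replicates 1 to 3 alone 20 members fell, with replicates 4 to 6 alone 21, and without MitoCDNB 4 h replicate 2 again 22.

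Nr4a1, an orphan nuclear receptor at chr15:101254269-101274795 (mm10), ranged over 47.8 to 89.4 CPM (median 74.5) at 1 h and 0.832 to 2.16 CPM (median 1.27) at 4 h. All 6 libraries at 1 h were high and all 6 at 4 h were low, with no overlap, and the fall was log2 -5.81 ± 0.71, adjusted p = 4.86e-06. In vehicle livers it ran from 1.38 to 14.3 CPM at 1 h and from 0.905 to 17.2 CPM at 4 h. The courses differed by -5.85 (adjusted p = 0.000703). That difference was -4.91 without Vehicle 4 h replicate 3, -6.54 without Vehicle 1 h replicate 1, and did not pass with the 1 h replicates 1 to 3 alone (-5.0, adjusted p = 0.0637). Its paralogues moved the same way: Nr4a2 fell (-2.93, adjusted p = 1.51e-06), more than in vehicle (adjusted p = 0.00577), and Nr4a3 fell from a median of 1.59 to 0.157 CPM (log2 -4.04 ± 0.59, adjusted p = 2.06e-05), where the difference from vehicle did not pass (-2.41, adjusted p = 0.151).

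Atf3, a stress-induced bZIP repressor and activator at chr1:191170296-191218039, lay at 18.9 to 52.4 CPM (median 32.8) at 1 h and 0.417 to 1.1 CPM (median 0.636) at 4 h. The lowest 1 h library was far above the highest 4 h library, and the fall was log2 -5.55 ± 0.49, adjusted p = 6.64e-08. Vehicle levels were 0.758 to 4.07 CPM at 1 h and 0.200 to 3.69 CPM at 4 h, so the treated livers at 4 h lay within or below the vehicle range. The courses differed by -5.15 (adjusted p = 0.000104), or by -4.55 without Vehicle 4 h replicate 3. Among AP-1 members, Fosb had 4.05 to 11.2 CPM (median 7.66) at 1 h and 0.0617 to 0.194 CPM (median 0.127) at 4 h, again without overlap (log2 -5.87 ± 1.40, adjusted p = 0.00337). Fosb varied widely in vehicle, from 0 to 10.4 CPM at 4 h, and its difference of courses did not pass (-5.94, adjusted p = 0.0654). Jund, an AP-1 subunit present in resting cells, was at 197 to 294 CPM (median 252) at 1 h and 47 to 77.3 CPM (median 66.1) at 4 h, and fell by a smaller factor with less spread (log2 -1.92 ± 0.16, adjusted p = 8.16e-09), more than in vehicle (-1.73, adjusted p = 3.96e-05). Jun also fell (-2.16, adjusted p = 0.00816). For Fos the means were 6.99 CPM at 1 h and 1.27 CPM at 4 h and the test did not pass (adjusted p = 0.174). Fosl1, which codes for another Fos family subunit, rose (1.83, adjusted p = 0.000959), as did Klf10 (0.93, adjusted p = 0.0242), which also rose in vehicle (1.69, adjusted p = 0.00324).

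Btg2, an antiproliferative gene and p53 target at chr1:134075170-134079120, ran at 71 to 135 CPM (median 105) at 1 h and 4.86 to 11.4 CPM (median 6.08) at 4 h. Here too the groups stood apart, with a fall of log2 -3.77 ± 0.52, adjusted p = 1.71e-05 against a vehicle course of 0.59 (adjusted p = 0.55). The difference was -4.36 (adjusted p = 0.00076). Krüppel-like factors followed: Klf4 fell from a median of 6.02 to 0.665 CPM (log2 -3.13 ± 0.38, adjusted p = 1.97e-06). Klf2, a flow-responsive endothelial factor, fell from a median of 17.7 to 4.37 CPM (log2 -2.10 ± 0.24, adjusted p = 1.04e-06), and Klf6 fell by log2 -1.52 (adjusted p = 7.79e-06). The course of each of these 3 was more downward than in vehicle (adjusted p = 0.00141, 0.000706 and 0.00387). That of Klf4 did not pass with the 1 h replicates 1 to 3 alone (adjusted p = 0.0736).

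Feedback phosphatases of the MAP kinases fell as well. Dusp8, at chr7:142079490-142095843, was at 7.39 to 10.6 CPM (median 9.24) at 1 h and 0.339 to 1.48 CPM (median 0.757) at 4 h, every 4 h library below every 1 h library (log2 -3.52 ± 0.39, adjusted p = 8.43e-07). Dusp4 fell from a median of 17.6 to 2.47 CPM (log2 -2.86 ± 0.28, adjusted p = 1.22e-07). Dusp5, which acts on nuclear ERK, fell from a median of 3.59 to 0.373 CPM (log2 -3.20 ± 0.38, adjusted p = 1.16e-06). All 3 had a course more downward than in vehicle, by -2.80 (adjusted p = 0.0031), -2.82 (adjusted p = 0.000112) and -3.23 (adjusted p = 0.00125), the last without a call when the 1 h replicates 1 to 3 were used alone (adjusted p = 0.0886). Dusp7 went the other way, from a median of 1.73 to 5.57 CPM (log2 1.67 ± 0.14, adjusted p = 8.16e-09), and its rise was larger than in vehicle (1.51, adjusted p = 4.04e-05). Dusp6 and Dusp1 fell by log2 -2.19 and -1.72 (adjusted p = 0.000463 and 0.0135), Dusp1 more than in vehicle (adjusted p = 0.0471).

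The cyclic AMP response element (CRE) is bound by CREB and ATF factors, and the promoters of Dusp8, Btg2 and Ppp1r15a are shown because these genes fell more than in vehicle and hold its full palindrome TGACGTCA. Sequences are from RefSeq on GRCm38.p6, 250 bases before to 50 after the annotated start, 5′ to 3′ on the gene's strand, with motif matches in capitals. Dusp8 (chr7:142095235-142095534, minus strand) holds the palindrome at -107 and -63, Btg2 (chr1:134079106-134079405, minus strand) at -166 and Ppp1r15a (chr7:45526219-45526518, minus strand) at -12, counted to the first matched base. The Ppp1r15a promoter also holds a match to the antioxidant response element core TGACNNNGC on the other strand at 3, capitalised after the first match.
Dusp8: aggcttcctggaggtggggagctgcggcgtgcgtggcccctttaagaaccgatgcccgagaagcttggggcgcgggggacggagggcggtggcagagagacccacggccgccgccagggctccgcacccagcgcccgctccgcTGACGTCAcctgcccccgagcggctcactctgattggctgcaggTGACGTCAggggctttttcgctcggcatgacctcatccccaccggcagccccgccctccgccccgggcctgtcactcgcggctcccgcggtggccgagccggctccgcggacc
Btg2: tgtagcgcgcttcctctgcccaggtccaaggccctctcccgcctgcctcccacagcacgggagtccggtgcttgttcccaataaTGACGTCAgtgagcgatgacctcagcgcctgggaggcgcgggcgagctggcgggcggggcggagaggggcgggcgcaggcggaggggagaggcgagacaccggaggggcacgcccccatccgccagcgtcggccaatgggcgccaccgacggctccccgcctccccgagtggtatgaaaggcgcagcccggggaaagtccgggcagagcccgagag
Ppp1r15a: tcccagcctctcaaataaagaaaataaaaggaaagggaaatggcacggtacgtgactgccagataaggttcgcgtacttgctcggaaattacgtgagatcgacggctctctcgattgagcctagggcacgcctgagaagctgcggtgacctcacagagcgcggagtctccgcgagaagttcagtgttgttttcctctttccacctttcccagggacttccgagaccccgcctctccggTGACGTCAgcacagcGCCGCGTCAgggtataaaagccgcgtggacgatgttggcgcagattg

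Promoters of 10343 of the 13833 genes tested were matched by gene, 13161 promoters in all, and both strands were searched. TGACGTCA was in 2.88% of all promoters and in 6.33% (14 of 221) of those of the 217 genes that fell more than in vehicle. Among all genes that fell the share was 3.22%, and among those that rose 2.46%. The core TGACNNNGC was in 14.2% of all promoters and in 23.5% of those of the 217 genes. The other patterns searched were the E-box CACGTG (9.68% of all promoters and 10.9% of those of the 217 genes), the D-box TTATGTAA (0.593% and 0.452%), the ROR element TAGGTCA (2.10% and 2.71%), the AP-1 site TGAGTCA (4.00% and 5.43%), the C/EBP-ATF site TGATGNAA (2.41% and 2.26%), the heat shock element (0.501% and 0%) and the forkhead site GTAAACA (2.67% and 4.98%). Matches of different patterns may share bases. A match is a description of letters in this window and not a bound site, and promoters of a gene with several starts share their gene.

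**Figure D2:**
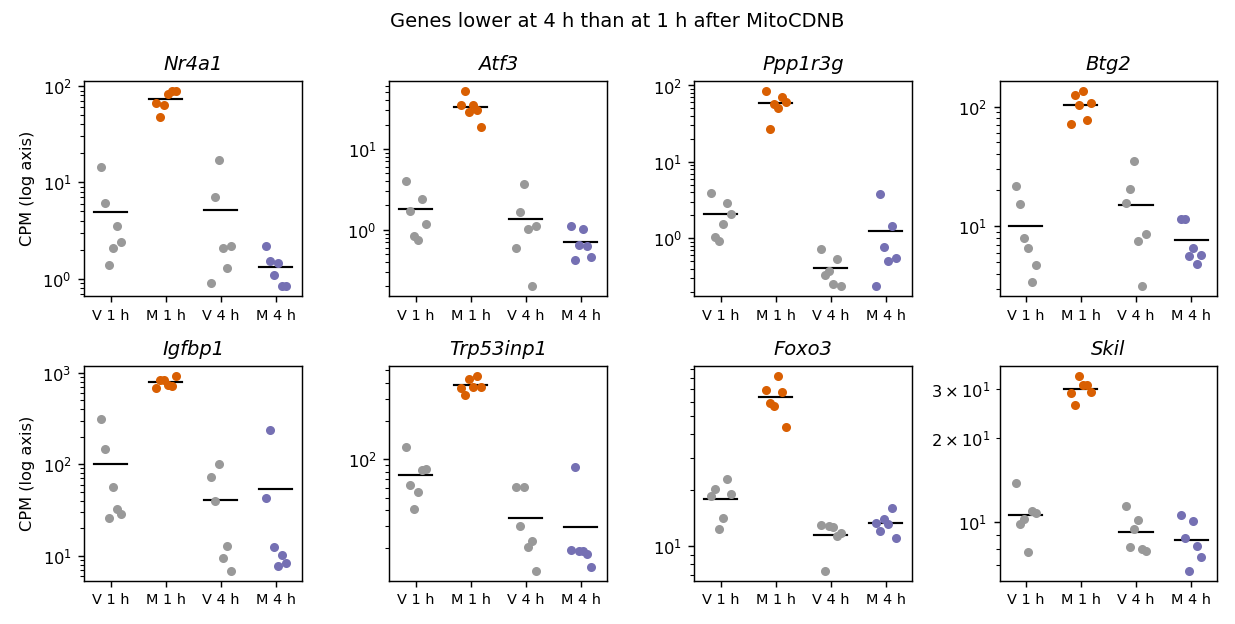
Levels in CPM (log axis) of 8 genes that fell after MitoCDNB, a panel per gene, with a point per library and a line at the mean of the 6 libraries of each group (V, vehicle and M, MitoCDNB, at 1 h and 4 h). In each panel the MitoCDNB 1 h points lie above all MitoCDNB 4 h points, as for Nr4a1 with 47.8 CPM at the lowest against 2.16 CPM at the highest.

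Beyond the classical early genes, the falls reached regulators of glycogen, growth factor and stress signalling. Ppp1r3g, a glycogen-targeting subunit of protein phosphatase, at chr13:35958839-35970388, was at 26.7 to 85.1 CPM (median 59.1) at 1 h and 0.236 to 3.85 CPM (median 0.665) at 4 h. MitoCDNB 4 h replicate 2 held the highest of the 4 h values, all of which were below the 1 h libraries (log2 -5.55 ± 0.48, adjusted p = 4.96e-08), and without it the fall was -6.34. Ppp1r3g also fell in vehicle (-2.34, adjusted p = 0.0235) and fell more after MitoCDNB (-3.22, adjusted p = 0.0301). That difference was -4.0 without replicate 2, and did not pass with either set of 3 replicates of 1 h (adjusted p = 0.194 and 0.0747). It also did not pass without MitoCDNB 4 h replicate 3 (adjusted p = 0.0502) or without Vehicle 4 h replicate 1, 3 or 5 (adjusted p = 0.0824, 0.0525 and 0.0658). Igfbp1, a secreted IGF-binding protein induced by fasting and stress, at chr11:7197782-7202546, had 685 to 933 CPM (median 780.2) at 1 h and 7.73 to 239 CPM (median 11.4) at 4 h. Replicate 2 at 239 CPM stood apart from the other 4 h libraries, the fall was log2 -3.88 ± 0.98, adjusted p = 0.00507, and without that library it was -5.61. The difference of the Igfbp1 course from that of vehicle did not pass (-2.58, adjusted p = 0.303).

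Trp53inp1, a p53-induced gene of autophagy and stress at chr4:11156431-11174379, was at 322 to 457 CPM (median 373) at 1 h and 14.2 to 87.1 CPM (median 19) at 4 h. Replicate 2 was again the highest at 4 h and still below every 1 h library (log2 -3.72 ± 0.48, adjusted p = 7.73e-06, or -4.44 without it), and the fall exceeded that of vehicle (-2.59, adjusted p = 0.0184). Apold1, an endothelial early response gene, ran at 9.29 to 16 CPM (median 10.4) at 1 h and 0.513 to 1.02 CPM (median 0.755) at 4 h (log2 -3.85 ± 0.29, adjusted p = 2.99e-09) with no course in vehicle that passed (-0.084, adjusted p = 0.924), and the difference was -3.77 (adjusted p = 5.09e-06). Rasd1, a glucocorticoid-inducible Ras-like protein, fell from a median of 5.38 to 0.410 CPM (log2 -3.32 ± 0.58, adjusted p = 0.000166). Hoxa5, a homeobox factor, fell from a median of 3.7 to 0.296 CPM (log2 -3.33 ± 0.27, adjusted p = 3.17e-09). Both fell more than in vehicle, by -4.44 (adjusted p = 0.00249) and -2.78 (adjusted p = 0.000161). For Rasd1 the difference was -3.43 without Vehicle 4 h replicate 1 and did not pass with the 1 h replicates 1 to 3 alone (adjusted p = 0.106).

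Among falls of at least 2-fold in genes averaging 1 CPM or more, those with the smallest p included Rell1, Skil, Tmcc3, Foxo3, Cxadr and Apold1. Rell1, a TNF receptor relative, was at 31.3 to 50.005 CPM (median 33.9) at 1 h and 6.27 to 9.1 CPM (median 8.09) at 4 h (log2 -2.25 ± 0.14, adjusted p = 3.62e-11). Skil, an inhibitor of SMAD signalling, ran at 26.3 to 33.6 CPM (median 30.2) at 1 h and 6.69 to 10.6 CPM (median 8.5) at 4 h (log2 -1.80 ± 0.12, adjusted p = 3.05e-10). Tmcc3 was at 28.2 to 33.7 CPM (median 30.1) at 1 h and 9.27 to 12.6 CPM (median 11.1) at 4 h (log2 -1.46 ± 0.10, adjusted p = 5.59e-10). None of these 3 genes overlapped between the times, and their 4 h levels after MitoCDNB overlapped those of vehicle at 4 h, for example 7.87 to 11.5 CPM for Skil. Cxadr, a junctional adhesion protein, fell from a median of 79.6 to 35.5 CPM (log2 -1.12 ± 0.089, adjusted p = 2.99e-09). All 4 fell more than in vehicle (adjusted p = 7.25e-06, 2.66e-06, 2.66e-06 and 0.00418). Tiparp, an Ah receptor target that represses that receptor, fell from a median of 19.3 to 4.1 CPM (log2 -2.19 ± 0.17, adjusted p = 2.99e-09). Bcl2l11, the proapoptotic protein BIM, fell from a median of 12.3 to 4.05 CPM (log2 -1.68 ± 0.15, adjusted p = 1.70e-08). Neither had a vehicle course that passed (adjusted p = 0.783 and 0.375), and the differences were -2.30 (adjusted p = 2.66e-06) and -1.95 (adjusted p = 4.79e-06).

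Genes of the integrated stress response, in which phosphorylation of eIF2α favours translation of ATF4, fell in part. Of 27 tested members 7 fell and none rose (11 had an unadjusted p under 0.05), with a median of -0.199. Over all genes 13.4% fell and 15.1% rose. Ppp1r15a, whose product GADD34 ends the response by directing a phosphatase to eIF2α, was at 17.7 to 25.2 CPM (median 18.6) at 1 h and 4.59 to 9.63 CPM (median 7.53) at 4 h (log2 -1.44 ± 0.24, adjusted p = 0.000113), with no overlap, and fell more than in vehicle (-1.55, adjusted p = 0.00895). It was the only listed member with a difference of courses that passed. Ddit4, an inhibitor of mTORC1, lay at 35.7 to 55.8 CPM (median 51.3) at 1 h and 3.42 to 34.4 CPM (median 4.91) at 4 h. MitoCDNB 4 h replicate 2 reached 34.4 CPM, just under the lowest 1 h library, the fall was log2 -2.37 ± 0.54, adjusted p = 0.00237, and without it -3.44. Gdf15, a stress cytokine, was at 4.42 to 32.6 CPM (median 22.7) at 1 h and 1.45 to 8.99 CPM (median 2.56) at 4 h (log2 -2.34 ± 0.59, adjusted p = 0.00481). Cebpb, a bZIP factor, was at 127 to 186 CPM (median 152) at 1 h and 47 to 152 CPM (median 65.1) at 4 h (log2 -1.04 ± 0.29, adjusted p = 0.00956), and the times overlapped in both genes. Vehicle courses of Ddit4, Gdf15 and Cebpb were 0.046, -0.60 and 0.00060, and the differences did not pass (adjusted p = 0.083, 0.29 and 0.175). The fall of 7 members depended on the 1 h libraries used: 2 members fell with replicates 1 to 3 alone, where Gdf15 and Cebpb did not pass (adjusted p = 0.0822 and 0.155), and 5 with replicates 4 to 6 alone.

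Chaperones of the endoplasmic reticulum fell by small amounts, 7 of 21 tested members of the unfolded protein response, while 1 rose (median -0.283, and -0.273 in vehicle, where 1 rose and 1 fell). Over all genes 13.4% fell and 15.1% rose. Herpud1, of the degradation complex, was at 380.5 to 474 CPM (median 443) at 1 h and 151 to 411 CPM (median 194) at 4 h, with replicate 2 of 4 h inside the 1 h range (log2 -0.94 ± 0.23, adjusted p = 0.00335). The disulfide isomerase Pdia4 fell from a median of 125 to 71.1 CPM (log2 -0.65 ± 0.14, adjusted p = 0.00122). The chaperone Hsp90b1 fell from a median of 625 to 371 CPM (log2 -0.61 ± 0.16, adjusted p = 0.00514). The lectin chaperone Canx fell from a median of 202 to 159 CPM (log2 -0.30 ± 0.070, adjusted p = 0.00228). Against the 1 h replicates 1 to 3 alone 12 members fell, and against replicates 4 to 6 alone 1, where Pdia4, Hsp90b1 and Canx did not pass (adjusted p = 0.0712, 0.125 and 0.0763). No course of this list differed from vehicle by the test.

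Proteasome subunits likewise fell in 7 of 27 tested members and rose in none, 8 having an unadjusted p under 0.05, with a median of -0.064 and no member called in vehicle. The shares over all genes were 13.4% and 15.1%. Psma5, a core subunit, was at 27.8 to 33.9 CPM (median 29.4) at 1 h and 21.6 to 25.2 CPM (median 23.4) at 4 h (log2 -0.35 ± 0.062, adjusted p = 0.000131) without overlap. Psmd11, Psma1 and Psmc6 fell by log2 -0.24 (adjusted p = 0.00232), -0.23 (adjusted p = 0.00313) and -0.22 (adjusted p = 0.00667). With the 1 h replicates 1 to 3 alone 3 members fell, and with replicates 4 to 6 alone 1, where Psmd11, Psma1 and Psmc6 did not pass (adjusted p = 0.0543, 0.112 and 0.0671). Of 22 cytosolic heat shock genes, Dnajb4, an HSP40 co-chaperone, fell from a median of 40.8 to 17.1 CPM (log2 -1.17 ± 0.17, adjusted p = 2.63e-05) and in vehicle too (-0.68, adjusted p = 0.0205). Chordc1, an HSP90 co-chaperone, was the only member that rose (log2 0.37 ± 0.13, adjusted p = 0.0415), a call lost in 9 of 12 single omissions of a library (adjusted p up to 0.119).

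Among genes of the glutathione and thioredoxin systems, changes were few and mostly under 2-fold. Of 18 mitochondrial glutathione and thioredoxin genes 3 rose and 2 fell, and of 17 tested cytosolic ones 1 rose and 5 fell, against 15.1% and 13.4% of all genes. Only 1 mitochondrial gene rose with the 1 h replicates 1 to 3 alone, and 3 cytosolic genes fell with replicates 4 to 6 alone. Gclc, the catalytic subunit of the rate-limiting enzyme of glutathione synthesis, was at 206 to 391 CPM (median 285) at 1 h and 97.3 to 137 CPM (median 111) at 4 h. Every 4 h library lay below every 1 h library (log2 -1.34 ± 0.14, adjusted p = 1.41e-07), Gclc fell in vehicle too (-0.62, adjusted p = 0.00762), and it fell more after MitoCDNB (-0.72, adjusted p = 0.0308). The modifier subunit Gclm fell by log2 -0.36 (adjusted p = 0.00199), with no call when the 1 h replicates 1 to 3 were used alone (adjusted p = 0.121). Gsr, which reduces oxidised glutathione, was at 38.6 to 46.3 CPM (median 43) at 1 h and 28.7 to 36.8 CPM (median 32.4) at 4 h (log2 -0.37 ± 0.076, adjusted p = 0.000635). Txnrd2, the mitochondrial thioredoxin reductase, was at 32.7 to 38.3 CPM (median 35.9) at 1 h and 26.9 to 30.1 CPM (median 28.2) at 4 h (log2 -0.34 ± 0.071, adjusted p = 0.000773), and the times overlapped in neither gene. The cytosolic reductase Txnrd1 fell by log2 -0.15 (adjusted p = 0.0415).

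Upward, Glrx, the cytosolic glutaredoxin, ran at 16.2 to 21.8 CPM (median 20.3) at 1 h and 25.7 to 34.7 CPM (median 29.1) at 4 h (log2 0.60 ± 0.10, adjusted p = 7.88e-05), with no overlap. Slc25a11 and Slc25a39, mitochondrial carriers linked to glutathione import, rose by log2 0.26 (adjusted p = 0.00595) and 0.17 (adjusted p = 0.0331). Glrx5, of mitochondrial iron-sulfur assembly, rose by log2 0.25 (adjusted p = 0.0288), a call lost in 4 of 12 single omissions (adjusted p up to 0.0773). None of the mitochondrial members had a course that differed from vehicle by the test. The SLC25 family member Slc25a34, whose transport role is not well known, rose by far more, from a median of 1.39 to 8.0 CPM (log2 2.53 ± 0.40, adjusted p = 6.02e-05), against 0.89 in vehicle, and the difference did not pass (adjusted p = 0.101).

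NRF2, the transcription factor of the antioxidant response, had 30 tested targets on the list, of which 2 rose and 5 fell (median -0.163, and -0.174 in vehicle), against 15.1% and 13.4% of all genes, and 3 fell with the 1 h replicates 1 to 3 alone. Osgin1, an oxidative stress growth inhibitor, was at 27.1 to 58.2 CPM (median 31.3) at 1 h and 80.2 to 317 CPM (median 103) at 4 h, every 4 h library above every 1 h library (log2 2.01 ± 0.34, adjusted p = 0.000133). It rose more than in vehicle (1.66, adjusted p = 0.0444). Hmox1, heme oxygenase, ran at 7.79 to 12.1 CPM (median 11.5) at 1 h and 15.1 to 40.8 CPM (median 21.4) at 4 h (log2 1.14 ± 0.25, adjusted p = 0.00175), highest in replicate 2 at 4 h, and its difference from vehicle did not pass (adjusted p = 0.27). Aox1, aldehyde oxidase, fell from a median of 87 to 53.6 CPM (log2 -0.69 ± 0.14, adjusted p = 0.000634).

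Genes that rose were led by Cdh4, R-cadherin, at chr2:179442431-179899373. It was at 0.181 to 0.594 CPM (median 0.403) at 1 h and 4.1 to 6.02 CPM (median 5.04) at 4 h, so that every 4 h library stood above every 1 h library by a wide margin (log2 3.65 ± 0.20, adjusted p = 1.13e-11). In vehicle it rose to a smaller extent, with 0.345 to 0.676 CPM at 1 h and 0.618 to 1.16 CPM at 4 h. The courses differed by 2.83 (adjusted p = 2.66e-06). Zfp503, a zinc finger repressor at chr14:21983959-21989601, had 0.389 to 0.609 CPM (median 0.531) at 1 h and 3.89 to 7.67 CPM (median 5.96) at 4 h (log2 3.49 ± 0.28, adjusted p = 3.17e-09). Its 1 h level after MitoCDNB was below the vehicle range of 0.808 to 2.79 CPM. The difference of courses was 2.61 (adjusted p = 0.000104).

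Several risers started below every vehicle library at 1 h and reached or passed the vehicle range at 4 h. Sox18, an endothelial SOX factor at chr2:181669836-181671640, was at 0.731 to 1.32 CPM (median 0.961) at 1 h and 2.94 to 3.92 CPM (median 3.44) at 4 h (log2 1.79 ± 0.15, adjusted p = 3.53e-09), while vehicle held 2.7 to 4.28 CPM at 1 h and 2.27 to 3.35 CPM at 4 h. Slc39a2, a zinc importer, went from a median of 0.330 to 1.56 CPM (log2 2.14 ± 0.22, adjusted p = 1.56e-07). Cbx2, a Polycomb subunit, went from a median of 2.28 to 8.22 CPM (log2 1.83 ± 0.16, adjusted p = 1.20e-08). Cdca7, a cell cycle gene, went from a median of 0.411 to 3.15 CPM (log2 2.67 ± 0.27, adjusted p = 9.43e-08). The RNA-binding paralogues Rbm12b1 and Rbm12b2 rose by log2 1.23 (adjusted p = 9.23e-06) and 1.27 (adjusted p = 2.57e-05), and as closely related genes on chromosome 4 they may share reads. Each of these 6 genes rose more than in vehicle, from 1.53 for Cdca7 (adjusted p = 0.0148) to 2.66 for Slc39a2 (adjusted p = 4.79e-06). Mroh6 rose from a median of 0.925 to 2.35 CPM with overlap (log2 1.36 ± 0.37, adjusted p = 0.00775), without a call when the 1 h replicates 1 to 3 were used alone (adjusted p = 0.0865), and its course differed from vehicle by 2.26 (adjusted p = 0.0094). Banp, a nuclear matrix protein, rose by log2 0.57 ± 0.21, adjusted p = 0.0486, a call lost in 8 of 12 single omissions (adjusted p up to 0.132), and fell in vehicle (-1.22, adjusted p = 0.00141). The Banp courses differed (adjusted p = 0.000867).

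Metabolic and signalling genes were also among the risers. Idh3a, the catalytic subunit of NAD-dependent isocitrate dehydrogenase of the citric acid cycle, was at 13.2 to 15.7 CPM (median 15.3) at 1 h and 25.3 to 35.2 CPM (median 33.7) at 4 h (log2 1.11 ± 0.087, adjusted p = 2.99e-09). Abhd15, an insulin-regulated hydrolase relative, was at 13 to 19.8 CPM (median 13.7) at 1 h and 32.8 to 39.4 CPM (median 34.2) at 4 h (log2 1.28 ± 0.094, adjusted p = 1.08e-09). Both rose in vehicle as well (0.52 and 0.46) and rose more after MitoCDNB (adjusted p = 0.00473 and 0.000414). G0s2, the inhibitor of adipose triglyceride lipase, rose from a median of 6.07 to 47.5 CPM (log2 2.84 ± 0.59, adjusted p = 0.00112). Inhbe, an inhibin β subunit secreted by liver, rose from a median of 6.04 to 35.4 CPM (log2 2.45 ± 0.27, adjusted p = 9.55e-07). Eif4ebp3, a repressor of cap-dependent translation, rose from a median of 16.8 to 90.3 CPM (log2 2.33 ± 0.33, adjusted p = 2.52e-05). None of these 3 differed in course from vehicle by the test (adjusted p = 0.219, 0.211 and 0.124).

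Less even were Phlda1 (log2 2.43 ± 0.63, adjusted p = 0.00639), Fam107a (log2 2.58 ± 0.70, adjusted p = 0.00836) and Cyp26b1, a retinoic acid hydroxylase (log2 2.42 ± 0.71, adjusted p = 0.0141). Phlda1, a pleckstrin homology-like gene, had 7.55 to 44.9 CPM (median 10.6) at 1 h and 49.7 to 141 CPM (median 84.7) at 4 h, with MitoCDNB 1 h replicate 4 at the top of its group, and its rise was 3.06 without that library. Fam107a did not pass with either set of 3 replicates of 1 h (adjusted p = 0.122 and 0.0931), Cyp26b1 not with replicates 1 to 3 (adjusted p = 0.198) and Phlda1 not with replicates 4 to 6 (adjusted p = 0.0637). In vehicle the 3 genes had courses of 0.37, 0.78 and 1.39, and the differences did not pass (adjusted p = 0.207, 0.416 and 0.667).

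**Figure D3:**
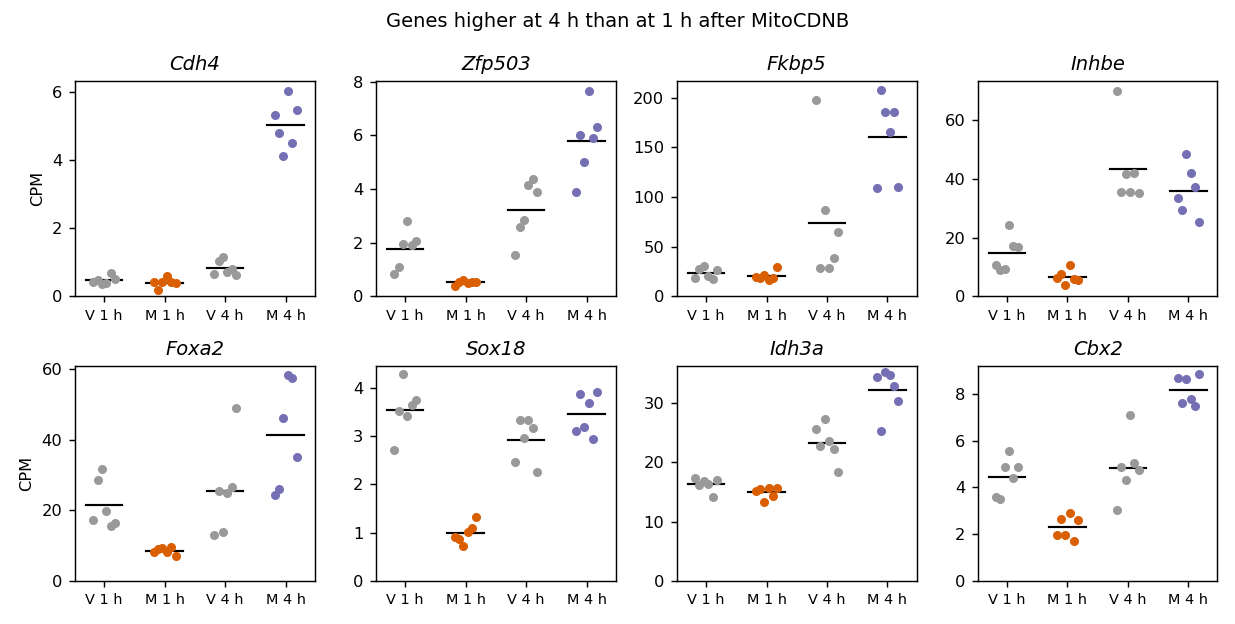
Levels in CPM (linear axis from 0) of 8 genes that rose after MitoCDNB, a panel per gene, with a point per library and a line at the mean of each group of 6 (V, vehicle and M, MitoCDNB, at 1 h and 4 h). For Cdh4 the 6 MitoCDNB 4 h points (4.10 to 6.02 CPM) lie above the 18 others, and for Sox18 the 6 MitoCDNB 1 h points (0.731 to 1.32 CPM) lie below the 18 others.

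Of 22 tested hepatocyte transcription factors 12 rose, 3 fell and 7 were not called (median 0.44), where 15.1% of all genes rose. Hnf4a was among those not called, at 494.6 to 640 CPM at 1 h and 457.8 to 770 CPM at 4 h after MitoCDNB. The cell type in which each factor changed was not tested. In vehicle 3 rose and none fell (median 0.174), and after MitoCDNB 3 had a course more upward than in vehicle. Foxa2, a pioneer factor of liver at chr2:148042877-148046969, was at 6.99 to 9.62 CPM (median 8.51) at 1 h and 24.2 to 58.3 CPM (median 40.5) at 4 h. All 4 h libraries exceeded all 1 h libraries (log2 2.28 ± 0.30, adjusted p = 9.08e-06), and the course differed from vehicle by 2.04 (adjusted p = 0.00496), a difference that did not pass with the 1 h replicates 1 to 3 or 4 to 6 alone (adjusted p = 0.0695 and 0.124). Nr2f2, the nuclear receptor COUP-TFII, was at 12.4 to 18.6 CPM (median 14.7) at 1 h and 22.4 to 29.5 CPM (median 24.3) at 4 h (log2 0.74 ± 0.12, adjusted p = 7.76e-05), and it rose more than in vehicle (adjusted p = 0.0253). Gata4 rose from a median of 14.5 to 20.2 CPM (log2 0.58 ± 0.10, adjusted p = 0.000183), and Foxa1, Hhex and Tbx3 by 1.14, 1.41 and 1.55 (adjusted p = 0.00775, 0.0171 and 0.000669). The Gata4 course in vehicle was 0.22 and the difference did not pass (adjusted p = 0.194). The 3 that fell were Cebpb, Nr5a2 (-0.32, adjusted p = 0.0274) and Tcf7l2 (-0.43, adjusted p = 0.0396). With the 1 h replicates 1 to 3 alone 9 rose and none fell, with replicates 4 to 6 alone 8 rose and 2 fell, and 13 rose and 1 fell without MitoCDNB 4 h replicate 2.

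The circadian clock separated into a part shared with vehicle and a part that was not. Output genes, driven by the clock through D-box and E-box elements, rose in 6 of 11 members after MitoCDNB (median 0.507) and in 7 in vehicle (median 0.596), where 1 fell. The shares of all genes that rose were 15.1% and 2.99%. Dbp, a D-box factor, was at 3.74 to 25.6 CPM (median 10.8) at 1 h and 27 to 89.8 CPM (median 57.9) at 4 h (log2 2.30 ± 0.43, adjusted p = 0.000371). Tef, another, was at 33.7 to 65.3 CPM (median 51) at 1 h and 98.1 to 138 CPM (median 112) at 4 h (log2 1.24 ± 0.16, adjusted p = 3.94e-06). Usp2, a deubiquitinase, was at 3.05 to 9.49 CPM (median 4.24) at 1 h and 13.2 to 35.2 CPM (median 22.4) at 4 h (log2 2.17 ± 0.32, adjusted p = 3.85e-05). No 4 h library overlapped those of 1 h in these genes. Vehicle livers showed rises of 1.79, 0.75 and 1.48, and the differences did not pass (adjusted p = 0.729, 0.25 and 0.471). Por, the cytochrome P450 reductase, rose by log2 1.06 after MitoCDNB and 0.84 in vehicle (adjusted p = 0.00013 and 0.00786), and the repressor Per3 by 2.33 and 1.67 (adjusted p = 8.05e-05 and 0.00762). Among activators Npas2 fell by log2 -2.0 and -1.89 (adjusted p = 0.00123 and 0.0289), the first of which was -2.67 without MitoCDNB 4 h replicate 2. Clock fell by log2 -0.44 and -0.60 (adjusted p = 0.0015 and 0.000889).

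Other clock genes took courses that differed from vehicle. Nr1d1, the heme-binding repressor REV-ERBα, ran at 33.3 to 42.3 CPM (median 37.9) at 1 h and 59.9 to 97.2 CPM (median 81.4) at 4 h (log2 1.04 ± 0.14, adjusted p = 5.31e-06) against -0.43 in vehicle (adjusted p = 0.0667), a difference of 1.47 (adjusted p = 5.51e-05). Per1, a light- and cyclic AMP-induced repressor, was at 56.1 to 71.6 CPM (median 57.2) at 1 h and 9.53 to 27.7 CPM (median 19.5) at 4 h (log2 -1.70 ± 0.30, adjusted p = 0.000261). Bhlhe40, a stress-induced repressor, was at 159 to 203 CPM (median 175) at 1 h and 53.7 to 128 CPM (median 84.6) at 4 h (log2 -1.03 ± 0.24, adjusted p = 0.00224). Every 4 h library lay below every 1 h library in both, and they fell more than in vehicle by -1.55 (adjusted p = 0.0397) and -1.78 (adjusted p = 0.00271). Rora, an activator of Bmal1 transcription, fell from a median of 54.7 to 24.1 CPM (log2 -1.10 ± 0.11, adjusted p = 1.31e-07, with MitoCDNB 4 h replicate 2 the highest at 4 h), and Nfil3, listed with it although it represses D-box genes, from a median of 39.95 to 12.2 CPM (log2 -1.74 ± 0.26, adjusted p = 2.86e-05). Their differences from vehicle were -0.81 (adjusted p = 0.00329) and -1.72 (adjusted p = 0.0064).

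**Figure D4:**
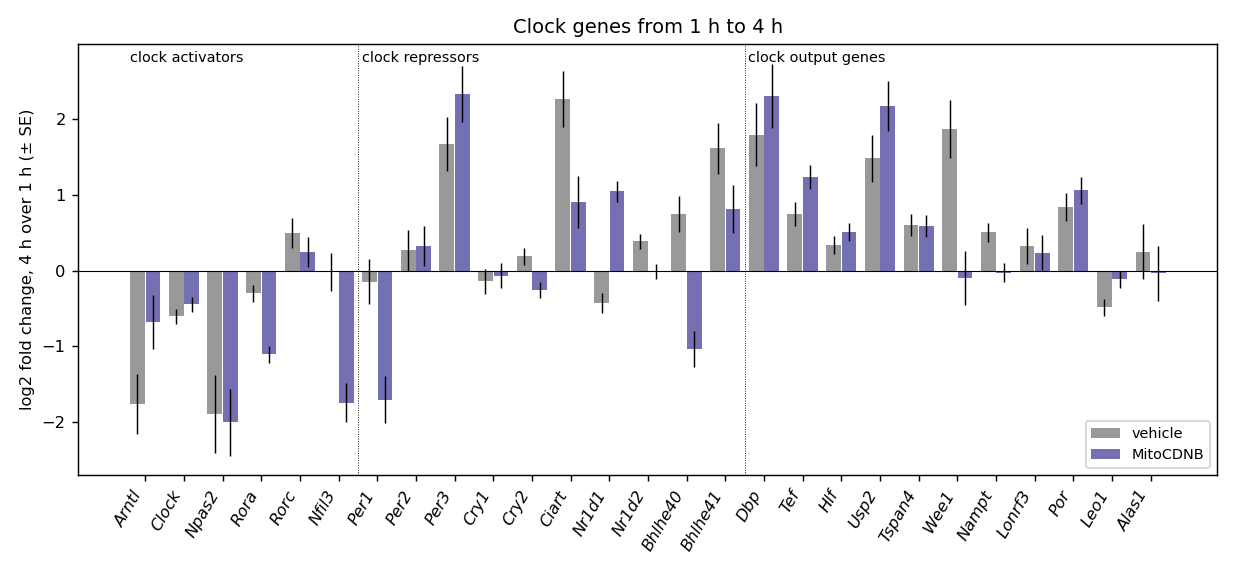
Log2 fold change from 1 h to 4 h of clock genes (bars) with its SE (error bars), for vehicle in grey and MitoCDNB in purple. Dbp, Tef, Usp2 and Per3 are above 0 in both, while Per1 (-1.70 after MitoCDNB, -0.15 in vehicle), Bhlhe40 (-1.03 and 0.75) and Nr1d1 (1.04 and -0.43) differ between the treatments.

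Genes that respond to glucocorticoid, fasting and insulin fell more often than they rose. Of 20 genes of gluconeogenesis and fasting 9 fell and 2 rose (median -0.683), against 13.4% and 15.1% of all genes. In vehicle 4 fell (median -0.261). Foxo3, a forkhead factor active when insulin is low, at chr10:42181841-42276755, was at 43.8 to 82.8 CPM (median 63.2) at 1 h and 11.1 to 16 CPM (median 13.2) at 4 h, a fall without overlap (log2 -2.25 ± 0.16, adjusted p = 1.13e-09) that was larger than in vehicle (-1.61, adjusted p = 7.91e-05). Sik1, a cyclic AMP-induced kinase that restrains the gluconeogenic coactivator CRTC2, ran at 52.8 to 70.4 CPM (median 63.5) at 1 h and 6.19 to 15.4 CPM (median 8.71) at 4 h (log2 -2.74 ± 0.37, adjusted p = 1.21e-05), and the difference from vehicle was -2.99 (adjusted p = 0.00117, or 0.089 with the 1 h replicates 1 to 3 alone). Of the rate-limiting enzymes, Pck1 was at 2108 to 2584 CPM (median 2364) at 1 h and 392 to 2223 CPM (median 785) at 4 h (log2 -1.35 ± 0.34, adjusted p = 0.00494). The top 4 h value of Pck1 was again in replicate 2, within the 1 h range, and the call was lost with the 1 h replicates 1 to 3 alone (adjusted p = 0.0779). Its course in vehicle was -0.22 and the difference did not pass (adjusted p = 0.218). Vehicle 4 h was split for Pck1, with 2516 and 2418 CPM in replicates 1 and 3 and 872 to 1196 CPM in the others. How the difference depends on those replicates was not tested. G6pc, which releases free glucose, fell by log2 -1.92 (adjusted p = 0.00165), Irs2 by -1.73 (adjusted p = 0.00559) and Foxo1 from a median of 39.1 to 23.1 CPM (log2 -0.82 ± 0.13, adjusted p = 6.30e-05). Cps1, the entry enzyme of the urea cycle, rose from a median of 2771 to 3823 CPM (log2 0.46 ± 0.091, adjusted p = 0.000439), more than in vehicle (0.53, adjusted p = 0.0158).

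Among 21 tested glucocorticoid-responsive genes 9 fell and 2 rose (median -0.544), against 13.4% and 15.1% of all genes, with opposite members at the extremes. Fkbp5, a co-chaperone of the glucocorticoid receptor and standard target at chr17:28399094-28517527, was at 16.7 to 29.3 CPM (median 18.8) at 1 h and 109 to 207 CPM (median 176) at 4 h. Every 4 h library exceeded every 1 h library (log2 2.97 ± 0.39, adjusted p = 1.01e-05), Fkbp5 also rose in vehicle (1.68, adjusted p = 0.0106), where a 4 h library reached 198 CPM, and the difference did not pass (adjusted p = 0.192). Sgk1, a kinase induced by glucocorticoid and by stress, was at 44.6 to 57.9 CPM (median 46.3) at 1 h and 7.2 to 16.5 CPM (median 8.36) at 4 h (log2 -2.37 ± 0.23, adjusted p = 1.22e-07). It fell more than in vehicle (-2.04, adjusted p = 0.000406). Tsc22d3, the factor GILZ, fell by log2 -1.37 after MitoCDNB and -1.18 in vehicle (adjusted p = 0.00527 and 0.0496). With the 1 h replicates 1 to 3 alone 4 members fell, with replicates 4 to 6 alone 6, and 11 without MitoCDNB 4 h replicate 2. In glycogen metabolism 4 of 16 tested members fell and 1 rose, against 13.4% and 15.1% of all genes. With the 1 h replicates 1 to 3 alone 2 fell. Beside Ppp1r3g, the glycogen-binding protein Stbd1 fell from a median of 58.8 to 42.1 CPM (log2 -0.52 ± 0.11, adjusted p = 0.000755), the kinase subunit Phka2 by -0.30 (adjusted p = 0.00887) and Pgm1 by -0.39 (adjusted p = 0.0106). The last 2 did not pass with the 1 h replicates 1 to 3 alone (adjusted p = 0.105 and 0.0549), nor did Pgm1 with replicates 4 to 6 (adjusted p = 0.0969).

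Lipid synthesis fell at the level of its regulators and of some enzymes. Cholesterol synthesis and uptake genes fell in 11 of 24 members and rose in 1 (median -0.327), against 13.4% and 15.1% of all genes. In vehicle 3 fell (median -0.205). Insig1, the sterol sensor that retains SREBP, was at 297 to 347 CPM (median 312) at 1 h and 79.6 to 139 CPM (median 97.7) at 4 h (log2 -1.62 ± 0.14, adjusted p = 8.59e-09). Every 4 h library of Insig1 was below every 1 h library, and it fell more than in vehicle (adjusted p = 0.0496). The count of 11 was 10 with the 1 h replicates 1 to 3 alone and 5 with replicates 4 to 6 alone.

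In lipogenesis 7 of 20 members fell and 2 rose (median -0.233), against 13.4% and 15.1% of all genes. No member was called in vehicle, where the median was -0.261. Srebf1, the master factor, ran at 254 to 428 CPM (median 317) at 1 h and 88.1 to 215 CPM (median 108) at 4 h (log2 -1.34 ± 0.23, adjusted p = 0.000144). Fasn, fatty acid synthase, was at 809 to 1348 CPM (median 983) at 1 h and 330.0 to 531 CPM (median 381) at 4 h (log2 -1.39 ± 0.24, adjusted p = 0.000181), and the times overlapped in neither gene. Pnpla3, a lipid droplet lipase, fell from a median of 5.34 to 1.13 CPM (log2 -1.87 ± 0.32, adjusted p = 0.000106). Mlxipl, the carbohydrate-responsive factor ChREBP, fell from a median of 355 to 255 CPM (log2 -0.48 ± 0.095, adjusted p = 0.000481). The times overlapped in Pnpla3. The vehicle courses of Srebf1 and Fasn were -0.63 and -0.71 (adjusted p = 0.108 and 0.0864). No member's course differed from that in vehicle by the test.

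Fatty acid oxidation and ketogenesis gave 4 rises and 1 fall among 26 members, against 15.1% and 13.4% of all genes. The balance turned without MitoCDNB 4 h replicate 2, where 1 rose and 3 fell, and with the 1 h replicates 4 to 6 alone 1 rose and 1 fell. Ppara, the nuclear receptor of fasting, was at 102 to 148 CPM (median 123) at 1 h and 167 to 219 CPM (median 185) at 4 h (log2 0.58 ± 0.14, adjusted p = 0.00216) and also rose in vehicle (0.52, adjusted p = 0.0235). The PPARα targets Acot1 (log2 1.19 ± 0.39, adjusted p = 0.0246) and Cyp4a10 (log2 1.93 ± 0.64, adjusted p = 0.0282) rose with wide spread, and lost their calls in 5 and 4 of 12 single omissions (adjusted p up to 0.0689 and 0.0998). Bdh1, of ketone body synthesis, fell by log2 -0.24 ± 0.083, adjusted p = 0.0293, a call lost in 6 omissions (adjusted p up to 0.0685).

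Of 15 tested bile acid genes 2 rose and 2 fell, against 15.1% and 13.4% of all genes. The bile salt export pump Abcb11 fell by log2 -0.43 and in vehicle by -0.51 (adjusted p = 0.000159 and 0.000448), and the synthesis enzyme Hsd3b7 by -0.58 and -0.46 (adjusted p = 0.000372 and 0.0138). The bile acid receptor Nr1h4 rose by log2 0.43 and 0.43 (adjusted p = 0.00265 and 0.0139). Cyp7a1, the rate-limiting enzyme of bile acid synthesis, spread over 21.2 to 55.2 CPM (median 41.7) at 1 h and 13.2 to 261 CPM (median 178) at 4 h (log2 1.91 ± 0.61, adjusted p = 0.023), and its call was lost without MitoCDNB 1 h replicate 5 (adjusted p = 0.0505) or without MitoCDNB 4 h replicate 3 (adjusted p = 0.056), and with either set of 3 replicates of 1 h (adjusted p = 0.163 and 0.171). Its course in vehicle was 0.96. Of 18 xenobiotic cytochromes P450 and regulators 4 rose and 1 fell, against 15.1% and 13.4% of all genes. With the 1 h replicates 4 to 6 alone 1 rose. Cyp2b10, the standard target of the receptor CAR, was at 0.0726 to 1.66 CPM (median 0.449) at 1 h and 1.0 to 11.3 CPM (median 3.71) at 4 h with overlap (log2 2.88 ± 0.77, adjusted p = 0.00723). Nr1i3, which codes for CAR, was at 29.5 to 48 CPM (median 32.8) at 1 h and 52.5 to 67.1 CPM (median 59.9) at 4 h (log2 0.75 ± 0.18, adjusted p = 0.00393). Cyp2b10 did not pass with the 1 h replicates 1 to 3 or 4 to 6 alone (adjusted p = 0.0808 and 0.0656), and Nr1i3, whose times did not overlap, not with replicates 4 to 6 (adjusted p = 0.0528). Their vehicle courses were 0.24 and 0.48, and the differences did not pass (adjusted p = 0.215 and 0.677).

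Of 33 tested ribosome biogenesis factors 19 rose, none fell and 14 were not called, where 15.1% of all genes rose. Of the list 24 had an unadjusted p under 0.05, and the median was 0.354. Vehicle livers had 9 rises and no fall, a median of 0.298, and no course differed between the treatments by the test. Rrp9, which binds U3 small nucleolar RNA, was at 5.13 to 6.4 CPM (median 5.26) at 1 h and 9.21 to 13.4 CPM (median 11.3) at 4 h (log2 1.01 ± 0.10, adjusted p = 9.43e-08). Rrp12, a factor of ribosomal subunit export, was at 3.46 to 5.41 CPM (median 4.25) at 1 h and 7.0 to 12.9 CPM (median 11) at 4 h (log2 1.22 ± 0.16, adjusted p = 5.04e-06). Nop2, an rRNA methyltransferase, ran at 9.75 to 12.9 CPM (median 12.5) at 1 h and 14.7 to 29.1 CPM (median 23.6) at 4 h (log2 0.95 ± 0.13, adjusted p = 9.04e-06). Mybbp1a, a nucleolar regulator of RNA polymerase I, was at 26.5 to 35 CPM (median 30.1) at 1 h and 36.9 to 51.2 CPM (median 44.1) at 4 h (log2 0.53 ± 0.080, adjusted p = 2.34e-05). In these 4 genes every 4 h library was above every 1 h library. The polymerase I subunits Polr1a and Polr1b rose by log2 0.74 and 0.62 (adjusted p = 0.000107 and 7.05e-05). With the 1 h replicates 1 to 3 alone 12 members rose, and with replicates 4 to 6 alone 16.

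The E-box CACGTG, read by MYC and by the clock activators, was in 25% of the 32 promoters of this list (8 promoters, of 28 genes matched) and in 17.6% of those of the immediate early list. It was in 9.68% of all promoters, 12% of those of genes that rose and 8.99% of those of genes that fell. Nop2 (chr6:125131633-125131932, plus strand) and Mybbp1a (chr11:72441077-72441376, plus strand) are shown as called members with a match, at -60 and at 40 from the start, in capitals.
Nop2: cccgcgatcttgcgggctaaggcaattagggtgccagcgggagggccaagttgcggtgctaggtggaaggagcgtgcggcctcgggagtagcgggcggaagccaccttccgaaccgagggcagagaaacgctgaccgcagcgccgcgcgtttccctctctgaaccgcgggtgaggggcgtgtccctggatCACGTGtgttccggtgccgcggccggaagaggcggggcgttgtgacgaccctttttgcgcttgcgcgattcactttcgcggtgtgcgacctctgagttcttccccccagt
Mybbp1a: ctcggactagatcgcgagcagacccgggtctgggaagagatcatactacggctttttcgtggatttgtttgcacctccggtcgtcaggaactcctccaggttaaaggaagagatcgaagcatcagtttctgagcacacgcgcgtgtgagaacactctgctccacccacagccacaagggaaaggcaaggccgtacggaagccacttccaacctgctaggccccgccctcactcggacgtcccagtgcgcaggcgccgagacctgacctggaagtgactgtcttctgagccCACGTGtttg

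Of 38 ribosomal protein genes 3 fell and none rose, 6 having an unadjusted p under 0.05 (median -0.0749). For this list and the next, the shares over all genes were 13.4% lower and 15.1% higher. Rpl22, Rps27a and Rpl5 fell by log2 -0.23, -0.26 and -0.17 (adjusted p = 0.0266, 0.0481 and 0.0494), calls lost in 5, 10 and 8 of 12 single omissions (adjusted p up to 0.0691, 0.128 and 0.14). None fell with the 1 h replicates 4 to 6 alone, and 1 fell without MitoCDNB 4 h replicate 2. Of 36 nuclear-encoded respiratory chain subunits 2 rose and none fell, 5 with an unadjusted p under 0.05 (median 0.0626): Cycs, cytochrome c (log2 0.24 ± 0.084, adjusted p = 0.0354), and Atp5a1, of ATP synthase (log2 0.15 ± 0.055, adjusted p = 0.0392), each a call lost in 7 of 12 omissions (adjusted p up to 0.096 and 0.112).

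Growth arrest genes fell in 10 of 20 members and rose in 2 (median -0.56), against 13.4% and 15.1% of all genes. In vehicle 3 rose and 2 fell (median -0.0208). The course of 4 members was more downward than in vehicle, against 1.69% of all genes. Wee1 was among these 4 and was not called after MitoCDNB. Btg1, a relative of Btg2, was at 36.7 to 44.2 CPM (median 40.4) at 1 h and 13.3 to 22.5 CPM (median 15.7) at 4 h (log2 -1.30 ± 0.12, adjusted p = 4.16e-08), and fell in vehicle too (-0.84, adjusted p = 0.000304). Ccnl1, a cyclin of RNA processing, ran at 28.9 to 46.4 CPM (median 34.6) at 1 h and 15.3 to 22.9 CPM (median 18.6) at 4 h (log2 -0.99 ± 0.14, adjusted p = 1.27e-05). It fell more than in vehicle (-0.88, adjusted p = 0.0094). Gadd45a, a DNA damage and stress gene, fell by log2 -1.10 (adjusted p = 0.0126) but rose in vehicle (1.41, adjusted p = 0.0153), and these courses differed (adjusted p = 0.00228). Ccne1, cyclin E, rose from a median of 0.423 to 1.73 CPM (log2 1.87 ± 0.26, adjusted p = 9.30e-06) and by 1.75 in vehicle (adjusted p = 0.000258). The count of 10 was 5 with the 1 h replicates 1 to 3 alone and 8 with replicates 4 to 6 alone.

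Of 22 p53 targets 6 fell and 2 rose, against 13.4% and 15.1% of all genes, and 3 fell with the 1 h replicates 1 to 3 alone. The list shares Btg2, Gadd45a and Trp53inp1 with the results above. The nuclease gene Aen rose by log2 0.68 ± 0.10, adjusted p = 1.90e-05 and Zmat3, an RNA-binding regulator of splicing, by log2 0.64 ± 0.11, adjusted p = 6.04e-05, both more than in vehicle (adjusted p = 0.0444 and 0.00652). Mdm2, the p53 ubiquitin ligase, fell by log2 -0.31 (adjusted p = 0.0115) and Plk3, a stress kinase, by -2.18 (adjusted p = 0.00116). Of 23 apoptosis regulators 5 rose and 2 fell, Bcl2l11 among the latter, against 15.1% and 13.4% of all genes. With the 1 h replicates 1 to 3 or 4 to 6 alone 3 or 2 rose. The inhibitor Birc2 rose by log2 0.48 ± 0.089, adjusted p = 0.000233 and the effector Bak1 by log2 0.33 ± 0.075, adjusted p = 0.00159. Bak1 also rose in vehicle (0.36, adjusted p = 0.00639) and did not pass with the 1 h replicates 1 to 3 alone (adjusted p = 0.0557).

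Inflammatory genes gave no common direction. Of 18 tested NF-κB targets, cytokines and chemokines 4 fell and 1 rose (median -0.199), against 13.4% and 15.1% of all genes. With the 1 h replicates 1 to 3 alone 2 fell. Cxcl2, a neutrophil chemokine, was at 0.466 to 1.93 CPM (median 0.967) at 1 h and 0 to 0.157 CPM (median 0.0470) at 4 h. Il1b, interleukin-1β, was at 5.09 to 7.39 CPM (median 5.71) at 1 h and 0.546 to 3.22 CPM (median 1.04) at 4 h. The times did not overlap in either gene (log2 -4.16 ± 1.02, adjusted p = 0.00378 and log2 -2.03 ± 0.56, adjusted p = 0.00942). Irf1, an interferon regulatory factor, rose from a median of 8.84 to 17.7 CPM (log2 1.04 ± 0.26, adjusted p = 0.0038), and Birc3, an NF-κB-induced inhibitor of apoptosis, fell by log2 -0.50 (adjusted p = 0.0117). The differences of Cxcl2, Il1b and Irf1 from vehicle did not pass (adjusted p = 0.143, 0.0624 and 0.124). Il1b did not pass with the 1 h replicates 4 to 6 alone (adjusted p = 0.0523), nor Birc3 with replicates 1 to 3 alone (adjusted p = 0.131). Acute phase proteins had no member of 22 called by edgeR (2 with an unadjusted p under 0.05), and the smallest p was that of Serpina3n (log2 0.80 ± 0.35, adjusted p = 0.0966). Serpina3n was called by limma-voom (adjusted p = 0.0387) and in edgeR's fit of the compared groups alone (adjusted p = 0.000526). It was also called by edgeR without MitoCDNB 4 h replicate 2 and Vehicle 4 h replicate 1, the libraries of 4 h that stand apart (adjusted p = 0.023). Interferon-stimulated genes rose in 1 and fell in 2 of 25, against 15.1% and 13.4% of all genes. Stat2 was at 29.8 to 38.4 CPM (median 31.1) at 1 h and 42.4 to 68.2 CPM (median 50.4) at 4 h (log2 0.74 ± 0.091, adjusted p = 1.46e-06). It rose more than in vehicle (0.63, adjusted p = 0.00393). Rsad2 fell by log2 -0.68 (adjusted p = 0.00258), as in vehicle (-0.75, adjusted p = 0.00811), and Ddx58 by -0.38 (adjusted p = 0.0164). Rsad2 did not pass with the 1 h replicates 4 to 6 alone (adjusted p = 0.0724), and Ddx58 with neither set (adjusted p = 0.121 and 0.0895).

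In the growth hormone and IGF axis 4 of 15 members fell and 1 rose, against 13.4% and 15.1% of all genes. Stat5b, the main transducer of growth hormone in liver, was at 67.6 to 105 CPM (median 80.01) at 1 h and 30.7 to 61 CPM (median 33.4) at 4 h (log2 -1.10 ± 0.14, adjusted p = 2.52e-06), with MitoCDNB 4 h replicate 2 at the top of its group, and fell in vehicle too (-0.70, adjusted p = 0.00435). Jak2, the receptor's kinase, fell from a median of 11.6 to 8.76 CPM (log2 -0.46 ± 0.089, adjusted p = 0.000384), more than in vehicle (-0.47, adjusted p = 0.0306), and the receptor Ghr by -0.42 (adjusted p = 0.000952). Igfbp4 rose by log2 0.28 and 0.28 in vehicle (adjusted p = 0.00244 and 0.0135), without a call for MitoCDNB when the 1 h replicates 4 to 6 were used alone (adjusted p = 0.0917). The major urinary proteins, secreted pheromone carriers under growth hormone control, took 11.1% to 36.3% of all counts at 1 h and 19.9% to 36.3% at 4 h, lowest in MitoCDNB 1 h replicate 6. None of the 20 tested was called by edgeR, none had an unadjusted p under 0.05 (the smallest p was that of Mup9, log2 -0.92 ± 0.62, adjusted p = 0.293), and they are near-identical genes whose reads may be split. Of 16 genes of metal handling, Smad7, an inhibitor of BMP signalling, rose by log2 0.71 ± 0.21, adjusted p = 0.0159, and Bmp6, the iron-regulated ligand, fell by log2 -0.55 ± 0.15, adjusted p = 0.00902. Smad7 did not pass with the 1 h replicates 4 to 6 alone (adjusted p = 0.179), nor Bmp6 with replicates 1 to 3 alone (adjusted p = 0.282). The manganese exporter Slc30a10 fell by log2 -0.41 ± 0.13, adjusted p = 0.0181, and the call was lost without MitoCDNB 1 h replicate 2 (adjusted p = 0.053) or without MitoCDNB 1 h replicate 5 (adjusted p = 0.0556). Slc30a10 also did not pass with the 1 h replicates 1 to 3 or 4 to 6 alone (adjusted p = 0.0535 and 0.13).

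**Figure D5:**
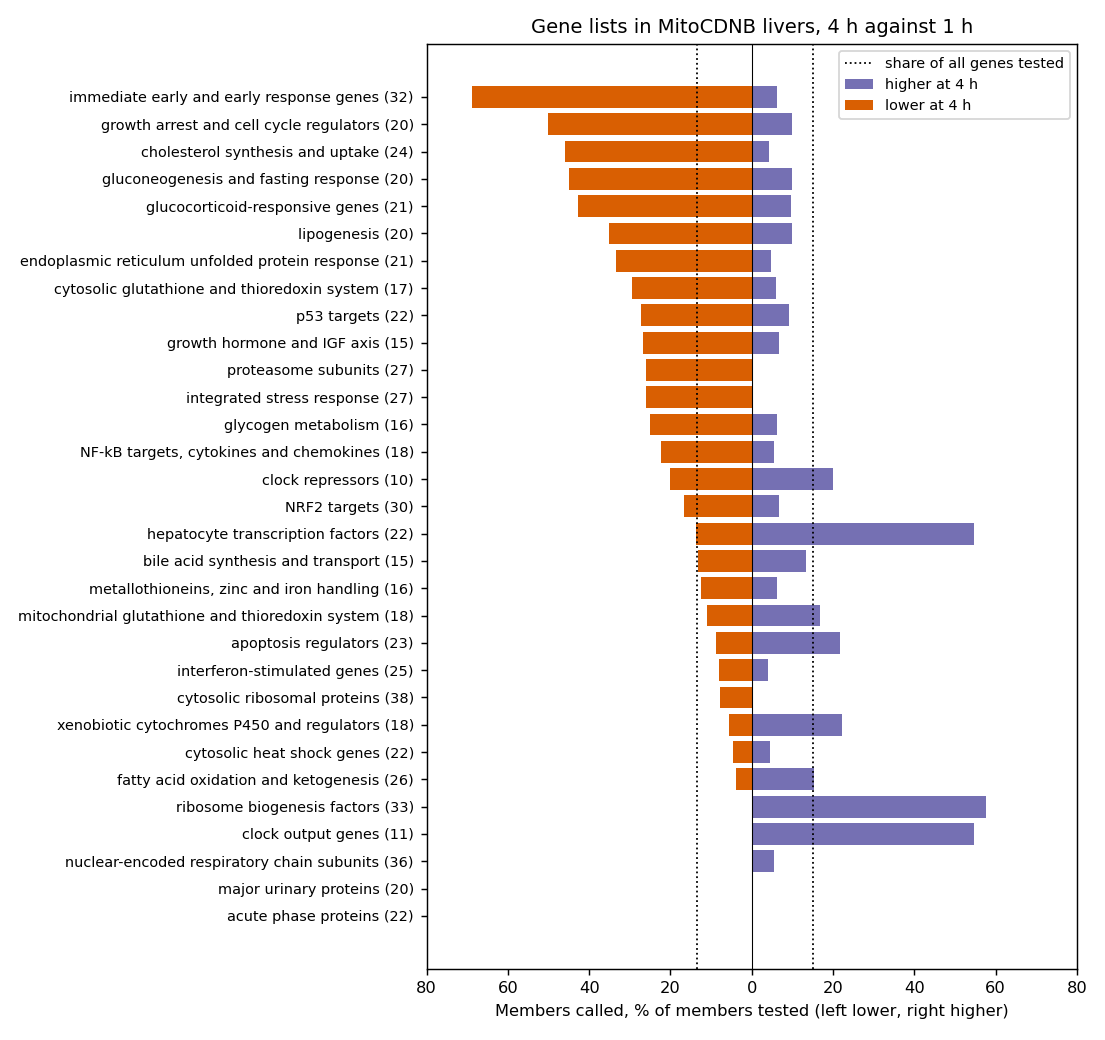
Share of tested members (x axis, percent) that were called higher or lower at 4 h after MitoCDNB, a row per gene list, with dotted lines at the shares over all 13833 genes (15.1% higher and 13.4% lower). Immediate early genes stand out among falls (22 of 32), and ribosome biogenesis factors (19 of 33) and hepatocyte transcription factors (12 of 22) among rises.

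Markers of other liver cells moved in a few genes. Of 7 tested neutrophil and monocyte markers 4 fell and none rose, against 13.4% and 15.1% of all genes. The summed level of the whole list was 11.98 to 18.1 CPM at 1 h and 3.72 to 6.21 CPM at 4 h. In vehicle it was 6.30 to 11.4 and 2.97 to 11.8 CPM. S100a9, a subunit of calprotectin, was at 2.56 to 4.97 CPM (median 3.48) at 1 h and 0.177 to 0.802 CPM (median 0.373) at 4 h. Its partner S100a8 was at 3.11 to 5.15 CPM (median 4.0) at 1 h and 0.236 to 0.832 CPM (median 0.402) at 4 h. All 1 h libraries were above all 4 h libraries in both (log2 -3.16 ± 0.37, adjusted p = 9.63e-07 and log2 -3.09 ± 0.47, adjusted p = 3.65e-05), and both fell more than in vehicle (-2.54, adjusted p = 0.00342, and -2.46, adjusted p = 0.0306). Retnlg and Csf3r fell by log2 -2.09 and -1.13 (adjusted p = 0.00361 and 0.00464), Csf3r not with the 1 h replicates 4 to 6 alone (adjusted p = 0.0751). The granule genes Mpo, Elane, Camp and Ngp were at or near 0 throughout. The part of these cells in the falls of Il1b, Cxcl2 and other early genes was not tested.

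Lymphocyte markers were scarce, with a summed level of 3.75 to 6.90 CPM at 1 h and 1.89 to 4.87 CPM at 4 h. Gzma, a protease of cytotoxic cells, fell from a median of 0.601 to 0.110 CPM (log2 -2.76 ± 0.46, adjusted p = 8.02e-05), with MitoCDNB 1 h replicate 6 the highest, and more than in vehicle (-2.64, adjusted p = 0.0229). Vehicle 4 h replicate 4 had a lymphocyte sum of 6.55 CPM and a Kupffer cell and macrophage sum of 681.5 CPM. The other Vehicle 4 h libraries held at most 2.85 and 351 CPM. The Gzma difference was not checked without that library. Klrb1c, a receptor of natural killer cells, fell by log2 -0.91 ± 0.32, adjusted p = 0.0363, a call lost in 7 of 12 omissions (adjusted p up to 0.0886).

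Of 14 endothelial markers 5 fell and 2 rose, against 13.4% and 15.1% of all genes. The sum of these markers was 373 to 451 CPM at 1 h and 350 to 417 CPM at 4 h. Ehd3, of sinusoidal endothelium, was at 35 to 49.6 CPM (median 41.5) at 1 h and 24.1 to 29.1 CPM (median 27.3) at 4 h (log2 -0.67 ± 0.077, adjusted p = 6.09e-07). The secreted factor Egfl7 was at 17.8 to 20.4 CPM (median 19.5) at 1 h and 12.1 to 15.5 CPM (median 13.6) at 4 h (log2 -0.49 ± 0.089, adjusted p = 0.000213). Kdr, the receptor VEGFR2, was at 31.8 to 45.6 CPM (median 38) at 1 h and 22.9 to 32.7 CPM (median 27.4) at 4 h (log2 -0.49 ± 0.092, adjusted p = 0.000298). The times overlapped in Kdr and not in Ehd3 or Egfl7. Egfl7 and Kdr fell more than in vehicle (adjusted p = 0.0444 and 0.0314), while Sox18 rose more, as given above. Of 12 Kupffer cell and macrophage markers Vsig4, a complement receptor, alone was called (log2 -0.46 ± 0.12, adjusted p = 0.0041), and not with the 1 h replicates 4 to 6 alone (adjusted p = 0.0742). Among stellate cell and fibroblast markers the call was the fall of Ngfr (log2 -0.76 ± 0.20, adjusted p = 0.00494), which did not pass with the 1 h replicates 1 to 3 alone (adjusted p = 0.079). Of 8 tested cholangiocyte markers 1 rose and 2 fell, and with the 1 h replicates 1 to 3 alone 4 fell. Among them Sox9 rose by log2 1.14 ± 0.27, adjusted p = 0.00237, though not with the 1 h replicates 1 to 3 alone (adjusted p = 0.0526). Krt23 fell by log2 -1.21 ± 0.35, adjusted p = 0.0117, more than in vehicle (-2.02, adjusted p = 0.0211), a call lost without MitoCDNB 1 h replicate 6 (adjusted p = 0.0555). Krt19 fell by log2 -1.84 ± 0.61, adjusted p = 0.0271, but MitoCDNB 1 h replicate 1 alone held 11.4 CPM, and without it the value was -0.44 (adjusted p = 0.42).

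Zonal markers of hepatocytes moved in single genes. Axin2, a Wnt target of pericentral hepatocytes, was at 1.14 to 2.21 CPM (median 1.32) at 1 h and 4.6 to 7.61 CPM (median 6.2) at 4 h, every 4 h library above every 1 h library (log2 2.08 ± 0.22, adjusted p = 1.51e-07). It rose more than in vehicle (1.67, adjusted p = 0.00114). It was the only called member of 10 pericentral markers. The periportal enzyme Hal fell by log2 -0.36 ± 0.13, adjusted p = 0.0407 and the hepatocyte marker Ass1, of the urea cycle, rose by log2 0.36 ± 0.13, adjusted p = 0.0444, each a call lost in 8 of 12 omissions (adjusted p up to 0.106 and 0.127).

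Markers of brain were at trace level and follow the split of the 1 h libraries named above. Slc17a7 had 0 to 0.633 CPM (median 0.282) at 1 h and 0 to 0.0321 CPM (median 0) at 4 h. Camk2a had 0 to 1.62 CPM (median 0.584) at 1 h and 0 to 0.125 CPM (median 0.0766) at 4 h, with the 3 highest values of both genes in replicates 4 to 6 of 1 h. Slc1a3, an astrocyte transporter, was at 0 in MitoCDNB 1 h replicate 3 and at most 0.472 CPM in any MitoCDNB library, so no course is read from these 3 genes although each was called. Gja1, a connexin listed with them that liver cells also express, fell from a median of 6.37 to 2.86 CPM (log2 -0.92 ± 0.27, adjusted p = 0.0139), without a call when the 1 h replicates 1 to 3 were used alone (adjusted p = 0.0531). Of erythroid, oligodendrocyte and skeletal muscle markers none was called by edgeR (3 of 5, 3 of 4 and 0 of 1 tested members had an unadjusted p under 0.05). The smallest p among erythroid markers was that of the globin Hbb-bs (log2 -0.63 ± 0.24, adjusted p = 0.0552), and the muscle marker was the myosin light chain gene Mylpf (log2 -0.23 ± 0.30, adjusted p = 0.61). Hbb-bs was called by DESeq2 (adjusted p = 0.0234), without robust estimation (adjusted p = 0.0433), with a filter at a mean of 1 CPM (adjusted p = 0.0484) and in the fit of the compared groups alone (adjusted p = 0.00269). Of erythroid markers 4, and of oligodendrocyte markers 2, fell with the 1 h replicates 4 to 6 alone. Among gut and pancreas markers Lgals4 rose (log2 0.99 ± 0.28, adjusted p = 0.0108), though not with the 1 h replicates 1 to 3 or 4 to 6 alone (adjusted p = 0.0802 and 0.129).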

How the data were processed

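The authors deposited a table of raw read counts per gene for 24 libraries, and its columns were matched to samples by title, with 0 columns left unused. The tools named in the submitters' processing notes are HISAT2, Trim Galore, DESeq2 and CASAVA 1.8.4, with mm10 as the build. The counting tool, the annotation and any strand setting were not given in the sources used here. Reads of overlapping or antisense genes therefore cannot be told apart. Per the labels' protocols, RNA was isolated with a PureLink kit and libraries were made with a NEBNext Ultra kit. Depth was 25.1 to 37.2 M counts per library.

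Of 24421 genes in the count table, 4653 were at 0 in every library. Genes were filtered with edgeR's filterByExpr (minimum count 10, minimum total 15), which left 13833 genes and removed 0.0306% of counts. Counts were scaled by TMM and tested in edgeR 4.0.16 (R 4.3.3) with the robust quasi-likelihood F test over all 24 libraries in 4 groups, so that the groups share an estimate of the spread. The contrasts were MitoCDNB 4 h minus 1 h, vehicle 4 h minus 1 h, and the difference between them, each Benjamini-Hochberg adjusted over all genes tested and called under 0.05. The SE is the absolute log2 fold change over the square root of F. No covariate separates time from library number.

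In simulated counts for 13833 genes, 67 genes were changed by 1.5-fold, 67 by 2-fold and 66 by 4-fold. The MitoCDNB contrast recovered 65.7%, 95.5% and 98.5% of these, with 9 false calls. The difference of courses recovered 46.3%, 82.1% and 97% with 5 false calls. Whether these figures hold in the real libraries, some of which stand apart and where 3940 genes were called, was not tested. Within-group pairs of libraries differed by more than counting noise in 30 of 30 pairs (chi-square per degree of freedom 16.2 to 577).

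The members, the 32 pathway lists and the 15 marker lists were chosen with earlier results of these data known, and lists are described by counts and medians with no set test. Named genes were, with a mean of at least 1 CPM, the 12 largest changes per direction with at least 5 of 6 libraries of each group on their own side of the other group's mean, the 10 largest differences of courses per direction among genes called in both, and the 6 smallest p per direction among changes of at least 2-fold. Up to 4 called members per list with the smallest p were added. A list with no called member gave the member of smallest p, and predicted genes were skipped. Some genes that met this rule are not reported here and were not replaced. Other list members are named in places, chosen after their values were seen, and as single genes were not checked under the alternatives below. Alternatives were RLE size factors, other filters, DESeq2 1.42.0, limma 3.58.1 (voom with quality weights), no robust estimation, the compared groups alone, a replicate block, stricter thresholds, omission of the major urinary protein genes, and omission of libraries. Promoters of RefSeq on GRCm38.p6 cover 250 bases before to 50 after the start, and gene positions are from GENCODE on mm10.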

Additional observations from a re-analysis of the deposited data

Results flagged for a closer look

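Dixon's test was applied in CPM to the MitoCDNB 1 h and the MitoCDNB 4 h values of each of 163 named genes. In 33 of these groups of 6 values, 1 library lay farther from the nearest other than Dixon's 95% critical value for 6 values allows. For normal values chance does so in about 1 group in 20. The groups share libraries, so they are not independent. MitoCDNB 4 h replicate 2 was that library in 14 of them, with levels in CPM of 18.7 in Slc25a34, 3.85 in Ppp1r3g, 239 in Igfbp1, 87.1 in Trp53inp1, 1.28 in Rasd1, 34.4 in Ddit4 and 152 in Cebpb. It also stood apart with 40.8 in Hmox1, 35 in Rora, 0.802 in Npas2, 16.5 in Sgk1, 411 in Herpud1, 61 in Stat5b and 2223 in Pck1. MitoCDNB 4 h replicate 1 stood apart with 112 in Pdia4 and 497 in Hsp90b1 CPM, and replicate 3 with 3.2 in Pnpla3 and 1.71 in Krt19. At 1 h, MitoCDNB replicate 6 held 29.3 in Fkbp5, 16 in Apold1, 25.2 in Ppp1r15a, 9.49 in Usp2, 287 in Por, 75.9 in Stbd1 and 1.73 in Gzma CPM. Replicate 1 of 1 h held 11.4 in Krt19 CPM, replicate 2 33.1 in Slc25a11 and 38.4 in Stat2, replicate 3 13.9 in Bak1, 2.72 in Ngfr and 0 in Slc1a3, and replicate 4 44.9 in Phlda1 and 19.8 in Abhd15.

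The course from 1 h to 4 h differed between MitoCDNB and vehicle in 60 of the genes that the naming rule gave, by edgeR's quasi-likelihood test of the difference at an adjusted p under 0.05. Other list members named in the text, such as Nr4a2 and Gadd45a, also passed and are outside this count. More upward after MitoCDNB, with the log2 difference of courses, were Cdh4 at 2.83, Slc39a2 at 2.66, Zfp503 at 2.61, Mroh6 at 2.26, Sox18 at 2.06 and Foxa2 at 2.04. Smaller upward differences were Rbm12b2 at 1.87, Banp at 1.79, Rbm12b1 at 1.79, Cbx2 at 1.71, Axin2 at 1.67 and Osgin1 at 1.66. Next in size were Cdca7 at 1.53, Dusp7 at 1.51, Nr1d1 at 1.47, Abhd15 at 0.82, Zmat3 at 0.69 and Nr2f2 at 0.68. The upward differences ended with Stat2 at 0.63, Idh3a at 0.59, Cps1 at 0.53 and Aen at 0.50. Among downward differences, the largest were Nr4a1 at -5.85, Atf3 at -5.15, Rasd1 at -4.44, Btg2 at -4.36, Apold1 at -3.77 and Dusp5 at -3.23. Next came Ppp1r3g at -3.22, Sik1 at -2.99, Klf4 at -2.93, Dusp4 at -2.82, Dusp8 at -2.80 and Hoxa5 at -2.78. They were followed by Gzma at -2.64, Trp53inp1 at -2.59, S100a9 at -2.54, S100a8 at -2.46, Tiparp at -2.30 and Klf2 at -2.05. Differences of intermediate size were Sgk1 at -2.04, Krt23 at -2.02, Bcl2l11 at -1.95, Bhlhe40 at -1.78, Jund at -1.73 and Nfil3 at -1.72. Then came Foxo3 at -1.61, Rell1 at -1.61, Skil at -1.59, Ppp1r15a at -1.55, Per1 at -1.55 and Tmcc3 at -1.41. Near these lay Ccnl1 at -0.88, Rora at -0.81, Gclc at -0.72, Insig1 at -0.66, Cxadr at -0.61 and Kdr at -0.48. Smaller downward differences were Jak2 at -0.47 and Egfl7 at -0.44.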

How the results depend on the processing

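With the MitoCDNB 4 h to 1 h comparison of 3940 called genes (2086 higher, 1854 lower), other scalings, filters and tools gave 3717 to 4776 calls, and omission of single libraries gave 3457 to 3901 (1851 to 2098 higher, 1602 to 1839 lower). The 1 h replicates 1 to 3 alone gave 2395 (1319 higher, 1076 lower), and replicates 4 to 6 alone 2647, of which 1308 were higher. At an adjusted p under 0.01 the counts were 2439 (1337 higher, 1102 lower), and at 2-fold 619 (278 and 341). The vehicle count of 753 fell to 177 (95 and 82) with the 1 h replicates 1 to 3, 309 (131 and 178) with replicates 4 to 6, 255 (127 and 128) at 0.01, 79 (42 and 37) at 2-fold, and 415 (216 and 199) in a fit of these groups alone. Omission of single vehicle libraries gave 480 to 749 (247 to 417 higher, 227 to 346 lower), the lowest being 480 without Vehicle 1 h replicate 6 and 500 without replicate 5. The count of 563 courses that differed was 150 (102 more upward, 48 more downward) with the 1 h replicates 1 to 3, 275 (137 and 138) with replicates 4 to 6, 231 (128 and 103) at 0.01, 183 (65 and 118) at 2-fold, and 913 (499 and 414) with limma-voom. Single omissions gave 439 to 696 (249 to 400 and 185 to 296). Both 3-replicate sets use fewer samples. Beyond that the cause was not tested. The share of more upward courses was 58.4%, and 35.5% among those of at least 2-fold.

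Replicate numbers gave no pairing: deviations of same-numbered MitoCDNB libraries correlated at -0.0365 to 0.0103 across genes, 0 of 6 over 0.1, and 0 libraries matched best with their own number. A replicate block gave 3917 calls, 3735 of them shared, 677 in vehicle and 541 for the difference.

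Single genes were checked for the 163 that the naming rule gave, with the difference from vehicle only for the 10 largest per direction. Other genes named in the text, such as Txnrd1 and Tcf7l2, were not checked in this way. Of the values checked under the alternatives, 2041 kept direction and side of the threshold, 107 lost the call (60 genes) and 8 gained it. Under single omissions these numbers were 2318, 116 (20 genes) and 2. No direction reversed. Beside the 3-replicate sets, calls after MitoCDNB were lost under some other alternative for Acot1, Ass1, Atp5a1, Banp, Camk2a, Chordc1, Cyp4a10, Cyp7a1, Hal, Klrb1c, Krt19, Rpl5, Rps27a, Slc17a7 and Slc1a3. At this depth, genes removed by the filter on low counts were not tested.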

Other observations

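Some members of the lists had a course that differed between MitoCDNB and vehicle without passing the test within MitoCDNB livers. Wee1, a kinase that restrains entry into mitosis and a clock output gene, had means of 6.5 CPM at 1 h and 6.07 CPM at 4 h after MitoCDNB (log2 -0.10, adjusted p = 0.872) and of 2.69 and 9.83 CPM in vehicle (log2 1.87, adjusted p = 0.00568), and edgeR's adjusted p of the difference was 0.0324. Bag3, a co-chaperone of HSP70, had means of 18.2 and 23.9 CPM after MitoCDNB (log2 0.40, adjusted p = 0.0695) and of 32 and 23.7 CPM in vehicle (log2 -0.43, adjusted p = 0.12), and the difference had an adjusted p of 0.0374.

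Among immediate early genes that did not pass, Egr1 had means of 65.7 CPM at 1 h and 11.2 CPM at 4 h after MitoCDNB (log2 -2.57, adjusted p = 0.0507), Junb 49.8 and 34.1 CPM (log2 -0.55, adjusted p = 0.525) and Myc 6.5 and 4.6 CPM (log2 -0.49, adjusted p = 0.635). Egr2, the zinc finger relative of Egr1, fell by -3.66 (adjusted p = 0.0117), and Maff, a small Maf factor that partners NRF2, by -3.16 (adjusted p = 2.07e-06), the latter more than in vehicle (adjusted p = 0.0019). These genes were picked after their values were seen.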
